A study of Mus musculus with 6 samples.

Results

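Immediate early genes outside the AP-1 family were followed in granulocyte-monocyte progenitors, the bone marrow cells that give rise to neutrophils and monocytes. The set was picked by symbol from the deposited all-gene table and holds 10 of its 24205 genes: Egr1, Ier2, Ier3, Ier5, Nr4a1, Klf2, Klf6, Zfp36, Zfp36l1 and Zfp36l2. Each symbol had 1 row. The progenitors were sorted from the bone marrow of C57BL/6 mice, 3 libraries after a sham operation (Sham) and 3 after hindlimb ischemia (HI), in which blood flow to a hind leg is interrupted. The labels give no age, sex, time after surgery or sort gates, and do not say whether 3 libraries means 3 animals, so the p-values rest on a spread between samples that may be technical. Expression was deposited as TPM, an abundance corrected for gene length and for the total of each library, so levels can be compared between genes.

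Immediate early genes are switched on within minutes of a growth factor, cytokine or stress signal, without new protein synthesis, mainly through ERK and p38 kinases acting on transcription factors already present. Their mRNAs usually decay fast. The set covers several roles: DNA-binding factors (EGR1, the orphan nuclear receptor NR4A1, and the Kruppel-like factors KLF2 and KLF6), small induced regulators (IER2, IER3 and IER5), and ZFP36 proteins, which bind AU-rich elements in the 3' ends of mRNAs and recruit the machinery that removes the poly(A) tail. Handling and sorting of cells are also known to induce these genes.

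RefSeq promoter windows on GRCm38.p6 (250 bases before to 50 after the gene start) matched 7 of the 10 genes. Egr1, Ier2 and Zfp36l2 had no window and were not searched. The 7 windows were searched on both strands for a CArG box, the site of serum response factor, an EGR site (GCGNGGGCG), a CRE core (TGACG), an AP-1 site (TGANTCA), an NF-kB site and a GC box (GGGCGG, which can overlap an EGR site). The 3 windows below are shown because they carry different matches and because their genes had different values after HI. Capitals mark the CArG box and EGR site of Zfp36, the NF-kB site of Ier3, and the CRE cores and EGR site of Nr4a1.
Zfp36, chr7:28379179-28379478, minus strand: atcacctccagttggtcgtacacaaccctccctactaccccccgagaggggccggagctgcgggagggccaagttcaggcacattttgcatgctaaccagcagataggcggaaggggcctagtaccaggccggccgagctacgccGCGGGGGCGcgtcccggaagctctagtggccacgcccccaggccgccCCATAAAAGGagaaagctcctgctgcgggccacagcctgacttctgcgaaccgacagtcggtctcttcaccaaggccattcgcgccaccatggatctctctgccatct
Ier3, chr17:35821463-35821762, plus strand: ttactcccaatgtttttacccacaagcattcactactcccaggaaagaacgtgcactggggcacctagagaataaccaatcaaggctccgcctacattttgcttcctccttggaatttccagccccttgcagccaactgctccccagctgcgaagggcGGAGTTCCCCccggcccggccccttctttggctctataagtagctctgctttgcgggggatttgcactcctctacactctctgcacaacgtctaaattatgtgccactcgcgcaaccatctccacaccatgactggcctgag
Nr4a1, chr15:101266596-101266895, plus strand: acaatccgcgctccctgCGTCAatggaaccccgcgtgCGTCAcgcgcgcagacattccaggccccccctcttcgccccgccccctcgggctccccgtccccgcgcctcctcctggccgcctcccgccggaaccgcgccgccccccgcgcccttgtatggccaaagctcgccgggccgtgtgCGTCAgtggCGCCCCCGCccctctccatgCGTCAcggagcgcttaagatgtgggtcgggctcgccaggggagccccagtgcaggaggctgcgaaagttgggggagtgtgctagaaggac
The CArG box of Zfp36 began 58 bases before the start and its EGR site 105 bases before; among all 32851 windows 1.63% held a CArG box. Nr4a1 held 4 CRE cores, beginning from 233 to 40 bases before the start, and 1 EGR site. A CRE core was found in 20.8% of all windows and in 2 of the 7, Nr4a1 and Klf2. An EGR site was found in 5.55% of all windows and in 3 of the 7, Zfp36, Klf2 and Nr4a1. The NF-kB site of Ier3 began 92 bases before its start, and such a site was in 4.51% of all windows and in 2 of the 7, Ier3 and Nr4a1. A GC box was in 35.7% of all windows and in 6 of the 7, the exception being Zfp36l1, whose window held the only AP-1 match (7.81% of all windows). These matches describe letters and do not show that a factor binds.

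In the 3' untranslated regions of the main GENCODE M21 transcripts, the core AU-rich element TATTTAT was counted, the sequence that ZFP36 proteins recognise. Ier3 held 4 copies in 613 bases and Zfp36 held 3 in 774 bases, while Zfp36l2 held 3 in 1822, Zfp36l1 held 3 in 1835, Klf6 held 2 in 3111 and Klf2 held 1 in 737. Egr1, Ier2, Ier5 and Nr4a1 held 0. Over the whole region, at least 1 copy was present in 27.5% of 10331 genes and at least 3 in 3.29% of them. In the last 500 bases, at least 1 copy was present in 14.7% of the 7201 tested protein-coding genes with a region that long, and at least 3 in 0.417% of them. Ier3 with 4 and Zfp36 with 3 in that window were the members above 2 copies. In the same window Zfp36l1 held 1, and Zfp36l2, Klf6 and Klf2 held 0. The following sites, with the element in capitals, show the spacing, which in Ier3 leaves a single base between a pair of elements.
Ier3, chr17:35822482-35822509, plus strand: gtctaattaaTATTTATgTATTTATgta
Zfp36, chr7:28376926-28376953, minus strand: gattttatagTATTTATatatattgggt
Zfp36l2, chr17:84184914-84184941, minus strand: ctatttaactTATTTATtatcttgtgaa
Klf2, chr8:72320989-72321016, plus strand: aacagactgcTATTTATtggaccttagg

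The 10 genes spanned levels from under 1 TPM to over 200 TPM. Zfp36l2 had the highest mean over the 6 libraries, 175 TPM, followed by Ier2 with 142, Zfp36 with 54.7, Ier3 with 30.6 and Klf6 with 15.0 TPM. Ier5, Egr1 and Klf2 lay close together at 5.30, 4.69 and 4.39 TPM. Nr4a1 and Zfp36l1 were lowest, with 0.683 and 0.404 TPM. From Ier2 down to Ier5 each gene's lowest library was above the highest library of the next, and Zfp36l2 was above Ier2 in 6 of 6 libraries although their ranges overlapped. Egr1 was below Ier5 in 5 of 6 libraries and above Klf2 in 4 of 6, so these neighbours were not separated by their spread. Nr4a1 and Zfp36l1 did not reach 1 TPM in 3 libraries and were not tested; 8 of the 10 genes were. Each of these 8 was above 1 TPM in all 6 libraries, so none entered through 1 group.

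**Figure D1:**
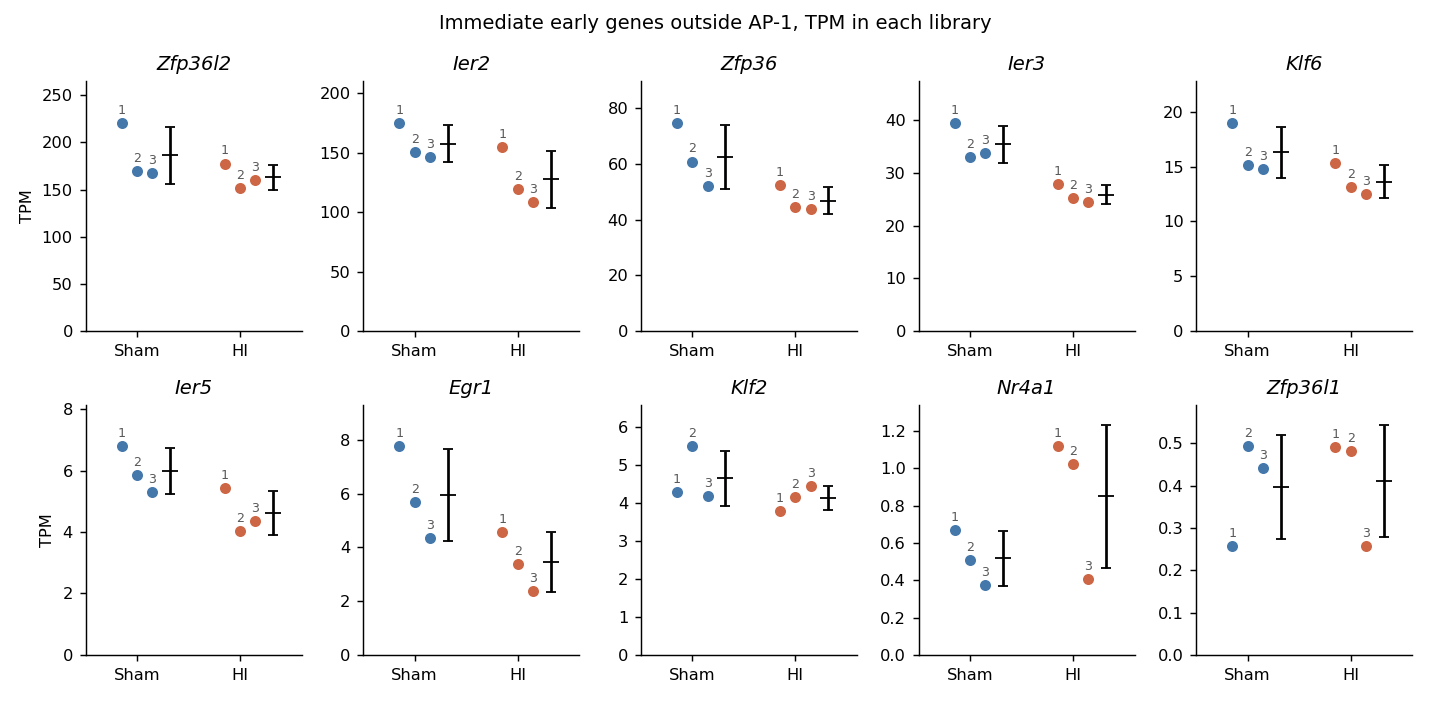
TPM (vertical axis, from 0) of each of the 10 genes in each library; points are libraries numbered by replicate, bars are mean and SD of 3 libraries. Ier3 is the gene whose Sham and HI points do not overlap, and Nr4a1 is the gene with the largest relative difference upward, on under 1.2 TPM.

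The comparison of HI with Sham asked whether ischemia in a limb is accompanied by a change in progenitor mRNA. All 8 tested genes had lower means after HI, by 11.2% for Klf2 to 41.9% for Egr1, and 0 passed an adjusted p of 0.05 over all genes in limma-trend. The background in that fit was 0% of 13787 genes. At an unadjusted p under 0.05, 3 of the 8 were lower (Ier3, Egr1 and Zfp36) and 0 higher; among all tested genes 2.95% were lower and 0.943% higher at that level. A negative log2 fold change is no rarity here, since 69.1% of all tested genes had one and the median over all was -0.089. The median of the 8 genes was -0.32, or -0.23 relative to all genes. Ier3 was the 1 gene whose groups did not overlap, where 6.68% of all tested genes had HI entirely below Sham. Single libraries moved these counts: 1 gene was lower at an unadjusted p under 0.05 without Sham replicate 1 (1.49% of all genes), without HI replicate 2 (1.25%) or without HI replicate 3 (1.47%), and 5 were without HI replicate 1 (15.3%). The groups were apart in 7 genes without HI replicate 1 (35.3% of all genes), in 4 without Sham replicate 3 (10.7%) and in 2 without HI replicate 3 (8.32%). By the authors' deposited table, the adjusted p of the 10 genes ran from 0.484 for Egr1 to 0.989 for Zfp36l1, against 0.216% of genes under 0.2.

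Markers of granulocyte-monocyte progenitors were abundant, with Mpo at 8448 to 12818 TPM, Elane at 9607 to 12367 TPM, Cd34 at 193 to 336 TPM and Kit at 70.2 to 147 TPM over the 6 libraries. Transcripts listed as markers of other cells were present and some moved with the groups. The summed level of 10 erythroid markers was 155 to 187 TPM in Sham and 30.7 to 96.1 TPM in HI, that of 12 B and T cell markers 92.6 to 102 and 47.8 to 97.3 TPM, and that of 9 macrophage and mature monocyte markers 149 to 202 and 154 to 211 TPM. Mature neutrophil markers (10 genes) summed to 530 to 782 TPM in Sham and 378 to 844 TPM in HI, megakaryocyte markers (6 genes) to 64.8 to 81.4 and 63.2 to 83.7 TPM, and endothelial and stromal markers (10 genes) to 30.7 to 40.3 and 23.2 to 41.3 TPM. The haemoglobin genes Hba-a1 (40.8 and 12.6 TPM) and Hba-a2 (46.9 and 14.6 TPM), paralogs so alike that their reads may be shared, and the lymphoid genes Ly6d (2.33 and 0.267 TPM) and Cd79a (2.11 and 0.756 TPM) had the smallest p of their lists. In the macrophage and mature monocyte list, 4 of 6 tested genes were lower in HI and 2 higher. Its genes of smallest p were C1qb (1.78 and 0.897 TPM) and Ccr2 (58.9 and 69.0 TPM). Every HI library was below every Sham library for C1qb (adjusted p 0.874 by limma). A sum follows its abundant genes and can hide a change in a low one. No listed marker in the table was at 0 in all 6 libraries, and Cd3e, a T cell gene named after its values were seen, reached at most 0.0758 TPM. The part of these transcripts in the values of the immediate early genes was not tested, and in bulk RNA fewer cells of a type and less RNA per cell cannot be told apart.

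EGR1 is a zinc-finger transcription factor induced through serum response factor. Egr1 (ENSMUSG00000038418) had 7.76, 5.69 and 4.36 TPM in Sham replicates 1 to 3 and 4.59, 3.39 and 2.37 TPM in HI replicates 1 to 3. The groups overlapped at Sham replicate 3 and HI replicate 1, and 8 of the 9 Sham-HI pairs had the lower value in HI. The means were 5.94 ± 1.71 and 3.45 ± 1.11 TPM (SD, n = 3 each), and the log2 fold change was -0.64 (SE 0.23), with an unadjusted limma p of 0.0179 and an adjusted p of 0.874. Only 0.493% of tested genes had a more negative value. The log2 fold change was -0.46 without Sham replicate 1 (unadjusted limma p 0.0966) and -0.46 without HI replicate 3 (unadjusted limma p 0.0707). It was -0.82 without HI replicate 1. The counts behind Egr1 were low to moderate, 263 to 588 reads per library.

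NR4A1, also known as Nur77, is an orphan nuclear receptor induced by antigen receptor and cytokine signals. Nr4a1 (ENSMUSG00000023034) had 0.669, 0.506 and 0.375 TPM in Sham and 1.12, 1.02 and 0.408 TPM in HI. HI replicates 1 and 2 were above every Sham library, and HI replicate 3 lay within the Sham range. The means of 0.517 ± 0.148 and 0.848 ± 0.384 TPM rest on 19 to 51 reads, and the exact two-sided permutation test over the 20 splits gave p = 0.3, where 0.1 is the smallest p that 3 against 3 allows. Nr4a1 was the gene of the set whose mean was higher after HI by more than 5%, against the direction of the 8 tested genes. Its paralog Nr4a2, named here after its values were seen, had 3.41 and 2.50 TPM, lower in HI in every library.

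IER3, also called IEX-1, is an early response protein involved in cell survival. Ier3 (ENSMUSG00000003541, GRCm38 chromosome 17, 35821684 to 35822923) had 39.5, 33.1 and 33.7 TPM in Sham and 28.0, 25.2 and 24.5 TPM in HI. Every HI library was below every Sham library. The means were 35.4 ± 3.54 and 25.9 ± 1.82 TPM, and the log2 fold change was -0.44 (SE 0.15), with an unadjusted limma p of 0.0129 and an adjusted p of 0.874. From 538 to 781 reads per library were counted.

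IER2 is a nuclear protein that acts on transcription and cell migration. Ier2 (ENSMUSG00000053560, chromosome 8, 84661331 to 84662852) had 175, 150 and 147 TPM in Sham and 155, 119 and 108 TPM in HI. Only HI replicate 1 reached the Sham range. The means were 157 ± 15.5 and 127 ± 24.2 TPM and the log2 fold change was -0.31 (SE 0.16; adjusted p 0.874 by limma), and -0.21 without HI replicate 3. IER5, a partner of the heat shock factor HSF1, was much less abundant. Ier5 (ENSMUSG00000056708, chromosome 1, 155096361 to 155099636) had 6.78, 5.86 and 5.30 TPM in Sham and 5.43, 4.04 and 4.37 TPM in HI. HI replicate 1 again sat just inside the Sham range and the other HI libraries below it, giving a log2 fold change of -0.32 (SE 0.17; adjusted p 0.874 by limma).

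KLF2 restrains proliferation and guides trafficking in lymphocytes and monocytes, and KLF6 takes part in myeloid activation. Klf6 (ENSMUSG00000000078, chromosome 13, 5861482 to 5870394) had 19.0, 15.2 and 14.8 TPM in Sham and 15.3, 13.1 and 12.5 TPM in HI, a log2 fold change of -0.24 (SE 0.17; adjusted p 0.874 by limma) that was -0.13 without Sham replicate 1 and -0.13 with size factors. Klf2 (ENSMUSG00000055148, chromosome 8, 72319033 to 72321656) had 4.29, 5.48 and 4.17 TPM in Sham and 3.79, 4.16 and 4.44 TPM in HI. Its groups overlapped broadly and its log2 fold change, -0.13 (SE 0.17; adjusted p 0.878 by limma), was the nearest to 0 among the 8 tested genes. It was -0.031 without Sham replicate 2, -0.086 without HI replicate 1 and -0.038 with size factors. Klf2 was also the gene whose library pattern departed from the rest, with Sham replicate 2 and HI replicate 3 as the highest of their groups. Klf2 made up 22.3 ± 4.07% of Klf2 plus Klf6 TPM in Sham and 23.4 ± 3.24% in HI (exact permutation p = 0.8).

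ZFP36, or tristetraprolin, is the founding member of the family and its own mRNA carries the AU-rich elements shown above. Zfp36 (ENSMUSG00000044786, chromosome 7, 28376784 to 28380253) had 74.7, 60.8 and 52.1 TPM in Sham and 52.3, 44.5 and 43.7 TPM in HI. HI replicate 1 and Sham replicate 3 differed by less than 1 TPM, and the remaining pairs did not overlap. The means were 62.5 ± 11.4 and 46.8 ± 4.75 TPM, with a log2 fold change of -0.40 (SE 0.16), an unadjusted limma p of 0.0313 and an adjusted p of 0.874. Without Sham replicate 1 the log2 fold change was -0.26. Zfp36l2 (ENSMUSG00000045817, chromosome 17, 84183931 to 84187947), which is needed for blood stem cells in mice, had 221, 170 and 168 TPM in Sham and 178, 151 and 161 TPM in HI, a log2 fold change of -0.18 (SE 0.14; adjusted p 0.874 by limma). It was -0.052 without Sham replicate 1 and -0.063 with size factors. Zfp36l1 (ENSMUSG00000021127) had 0.258 to 0.493 TPM in Sham and 0.257 to 0.492 TPM in HI, from 13 to 29 reads, and the groups covered the same range. Antisense genes are annotated over 1274 bases of Zfp36 and 2192 bases of Zfp36l2, and the lincRNA gene Gm26669 (mean 0.0045 TPM) shares 4967 bases with Zfp36l1 on the opposite strand. Whether reads were counted by strand is not given in the sources used here, so reads of these genes and of the members cannot be told apart.

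A share within a library cannot be moved by the scaling of that library. Zfp36l2 supplied most ZFP36 family mRNA, 74.6, 73.5 and 76.1% in Sham and 77.1, 77.1 and 78.5% in HI. Zfp36 supplied 25.3, 26.3 and 23.7% in Sham and 22.7, 22.7 and 21.4% in HI. Every HI library had a lower Zfp36 share than every Sham library, 25.1 ± 1.32% against 22.2 ± 0.756%, a difference of -2.83 percentage points. The exact two-sided permutation p was 0.1, the smallest that this design allows, so the difference cannot pass 0.05. Zfp36l1 supplied 0.0871 to 0.245% and its share overlapped between the groups.

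**Figure D2:**
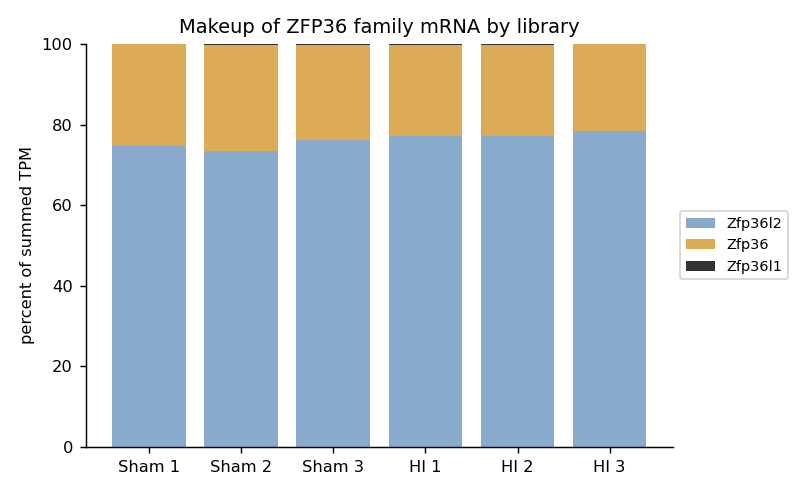
Percent of the summed TPM of Zfp36l2, Zfp36 and Zfp36l1 (vertical axis) in each library, as stacked bars. Zfp36l2 takes 73.5 to 78.5% of each bar, and the Zfp36 part is lower in every HI bar than in every Sham bar.

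Libraries differed as wholes, partly in the same direction as these genes. Typical genes were highest in Sham replicate 1 and lowest in HI replicate 3, but HI replicate 1 stood above Sham replicates 2 and 3. The median-of-ratios size factor, which measures how high the typical gene stands in a library, was 1.16 in Sham replicate 1, 0.974 and 0.999 in Sham replicates 2 and 3, and 1.05, 0.958 and 0.878 in HI replicates 1 to 3. Sham replicate 1 was the highest Sham library in 7 of the 8 tested genes and HI replicate 1 the highest HI library in 7 of 8, the exception being Klf2 for both. Division by these factors moved the median of all genes from -0.089 to 0.017 and that of the 8 genes from -0.32 to -0.21. Ier3 then stood at 34.01, 33.94 and 33.70 in Sham and 26.59, 26.28 and 27.92 in HI on the scaled TPM, with a log2 fold change of -0.32 (SE 0.08; unadjusted p 0.00536, adjusted p 0.853 by limma). Scaled values of Zfp36 were 64.4, 62.4 and 52.1 in Sham and 49.8, 46.5 and 49.8 in HI. On this scale 5 of the 8 genes had HI wholly below Sham, namely Ier3, Zfp36, Klf6, Ier5 and Egr1, where 5.51% of all tested genes did. For Egr1 that separation rested on 4.365 against 4.364, and again 0 genes passed an adjusted p of 0.05.

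**Figure D3:**
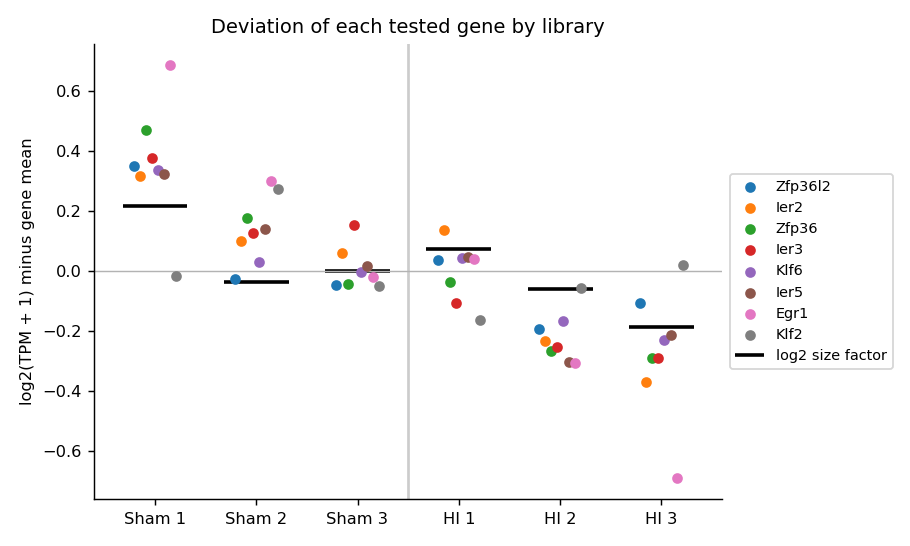
Deviation of log2(TPM + 1) from the gene's mean over 6 libraries (vertical axis) for the 8 tested genes in each library; black bars are the log2 size factor of the library, centred on 0. Most genes lie above the bar in Sham replicates 1 and 2 and below it in HI replicates 2 and 3. Klf2 does not in Sham replicate 1, HI replicate 2 or HI replicate 3, nor does Zfp36l2 in HI replicate 3.

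The genes share structure that the choice of symbols did not use. They have few exons: Ier2 and Ier5 have 1 in the main transcript, Ier3, Egr1, Zfp36, Zfp36l1 and Zfp36l2 have 2, Klf2 has 3, Klf6 has 4 and Nr4a1 has 8. Among 10496 tested protein-coding genes the median was 9 exons, and 7.37% had 2 or fewer. Most are rich in GC, with 61.6% for Klf2, 60.9% for Ier2 and 57.3% for Egr1 against a median of 50.01%, whereas Klf6 has 42.4%. The group difference varied with GC content, though not alike in every HI library. The median log2 fold change of all tested genes was 0.016 among genes with 26.3 to 44.1% GC, the lowest of 5 groups of like size. It was -0.17 among those with 55.4 to 80.3%, the highest. From the lowest to the highest group, the typical deviation fell from 0.041 to -0.11 in HI replicate 2 and from 0.040 to -0.28 in HI replicate 3. It rose from -0.055 to 0.14 in HI replicate 1. In Sham replicates 1 to 3 it rose from 0.18 to 0.22, -0.060 to -0.012 and -0.13 to 0.072. After a correction of each library for its trends with GC content and transcript length, chosen after seeing the data, the log2 fold change was -0.35 (SE 0.08) for Ier3, -0.40 (SE 0.14) for Egr1 and -0.21 (SE 0.10) for Zfp36. Ier2 and Klf6 had -0.17 each and Ier5 had -0.13, while Klf2 turned to 0.027 and Zfp36l2 to 0.033, so 6 of 8 stayed negative beside 49.2% of all genes. With the correction 2 of the 8 were lower at an unadjusted p under 0.05, Ier3 (adjusted p 0.485 by limma) and Egr1 (adjusted p 0.607 by limma), beside 4.23% of all genes. Groups were apart in 3 genes, beside 7.35% of all genes, 0 passed the adjusted threshold, and the median was -0.17 beside 0.0026 for all genes.

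**Figure D4:**
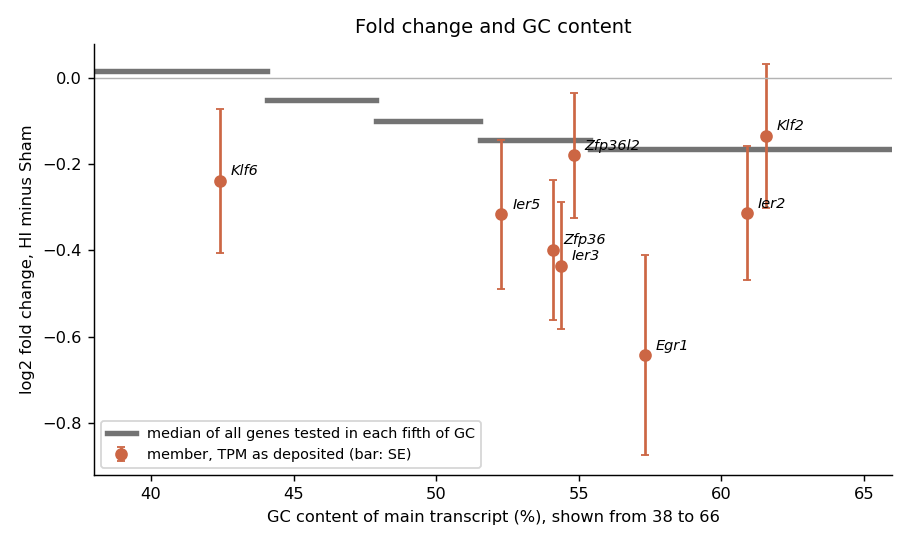
Log2 fold change, HI minus Sham (vertical axis, bars SE), against GC content of the main transcript for the 8 tested genes; grey lines are medians of all tested genes in 5 groups of GC content. The grey lines descend from 0.016 to -0.17, and Egr1 at -0.64 and Ier3 at -0.44 lie below them.

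**Figure D5:**
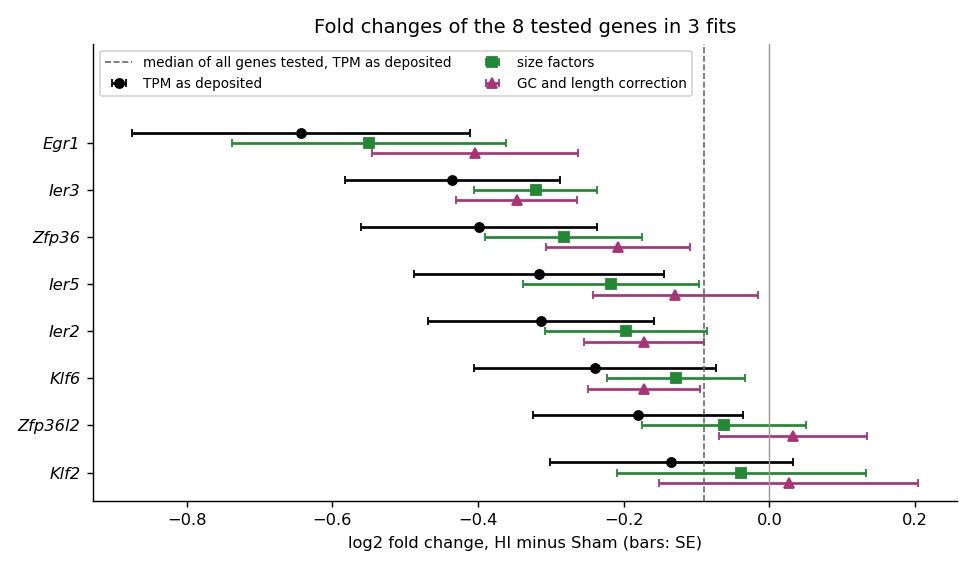
Log2 fold change, HI minus Sham (horizontal axis, bars SE), of the 8 tested genes from TPM as deposited, after size factors, and after the GC and length correction; the dashed line is the median of all genes in TPM as deposited, -0.089. Ier3 has -0.44, -0.32 and -0.35, while Zfp36l2 reaches 0.033 and Klf2 0.027 in the last.

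Apart from Klf2, the tested genes followed similar patterns over the 6 libraries. As a description, Pearson's r of each gene with the mean standardised value of the other tested genes was 0.992 for Zfp36, 0.971 for Ier5, 0.960 for Egr1, 0.945 for Klf6, 0.933 for Ier3, 0.903 for Ier2 and 0.846 for Zfp36l2, and 0.128 for Klf2. These values share the size of the libraries and the group difference, and 21.2% of the 10510 other genes with a mean of at least 5 TPM had r above 0.8 with the mean pattern of the set. The 6 closest were Arl6ip5, Sfswap, Deaf1, Diablo, Arfrp1 and Ank, with r from 0.995 to 0.989. Arl6ip5 had 95.1 and 81.2 TPM in Sham and HI, and Deaf1 had 33.7 and 24.7 TPM.

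Other immediate early genes outside AP-1 were described from a list of 49, of which 36 were tested. Of these 28 had negative and 8 positive log2 fold changes, where 69.1% of all tested genes were negative. Their median was -0.16 beside -0.089 for all genes, and -0.093 without Sham replicate 1, and 3 were lower at an unadjusted p under 0.05 (2.95% of all tested genes) and 0 higher. Gem, a small GTP-binding protein, had 2.16 and 0.745 TPM in Sham and HI (log2 fold change -0.84, adjusted p 0.653 by limma). Ppp1r15a, which encodes the GADD34 phosphatase subunit of the stress response, had 25.3 and 16.7 TPM (log2 fold change -0.62). Egr2 and Nr4a3, paralogs of Egr1 and Nr4a1 named after their values were seen, averaged 0.112 and 0.0244 TPM in Sham and 0.0977 and 0.0145 TPM in HI. The AP-1 genes included Fos with 69.6 and 48.5 TPM and Jun with 97.5 and 60.9 TPM. Of the 7 tested, 2 were lower at an unadjusted p under 0.05, where 2.95% of all tested genes were. The AP-1 median was -0.19, and -0.097 without Sham replicate 1, -0.35 without HI replicate 1 and -0.089 with size factors. Over all tested genes the median in these settings was -0.089 as deposited, -0.036, -0.15 and 0.017, in the same order.

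Factors upstream were listed as cofactors and kinases. Of 15 EGR cofactors, ternary complex factors and related regulators, 0 had an unadjusted p under 0.05 (3.89% of all tested genes did) and the median was -0.21. That median was -0.092 without Sham replicate 1 or without HI replicate 3, -0.11 with size factors and -0.060 with the GC and length correction. The median over all tested genes, -0.089 as deposited, moved too. It was -0.036 without Sham replicate 1, -0.031 without HI replicate 3, 0.017 with size factors and 0.0026 with the correction. Elk1, a partner of serum response factor, had 3.54 and 2.48 TPM and Crtc2, a CREB coactivator, had 24.8 and 18.9 TPM (log2 fold changes -0.39 and -0.38). Of 17 ERK and p38 pathway kinases 0 had an unadjusted p under 0.05, with a median of -0.18, and Map2k3 (75.0 and 60.9 TPM) and Rps6ka2 (16.2 and 12.9 TPM) had the smallest p. The kinase median was -0.059 without Sham replicate 1, -0.080 without HI replicate 3, -0.29 without Sham replicate 2, -0.34 without HI replicate 1, -0.063 with size factors and -0.026 with the GC and length correction. Over all genes the median was -0.13 without Sham replicate 2 and -0.15 without HI replicate 1. Among 11 other Kruppel-like factors tested the median was -0.21, but -0.098 without Sham replicate 1 and -0.094 without HI replicate 3. At an unadjusted p under 0.05, 2 were lower, where 2.95% of all tested genes were: Klf1 with 5.79 and 3.41 TPM and Klf5 with 2.15 and 1.11 TPM. Klf1, an erythroid factor, is also among the erythroid markers summed above. Some of the 11 factors are also in the list of other immediate early genes, so these lists are not independent.

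Genes around ZFP36 were listed as partners and as targets. Of 23 tested AU-rich element binding proteins and CCR4-NOT deadenylase genes 1 was lower at an unadjusted p under 0.05, where 2.95% of all tested genes were. It was Tob1, an adaptor of the deadenylase (6.94 and 4.70 TPM). The median of the 23 was -0.058. That median changed sign with the setting: it was 0.052 with size factors, 0.022 with the GC and length correction and 0.011 with voom on recovered reads. It was 0.025 without Sham replicate 1 and -0.17 without HI replicate 1. The median over all tested genes, -0.089 as deposited, moved too. In the same order it was 0.017, 0.0026, -0.030, -0.036 and -0.15, so much of the shift was shared by all genes. Cnot8, a deadenylase subunit, had 85.8 and 72.5 TPM. Of 20 tested mRNAs known to carry AU-rich elements, Ier3 among them, 19 had negative log2 fold changes (69.1% of all tested genes did), 6 were lower at an unadjusted p under 0.05 (2.95% of all) and 0 higher, with a median of -0.32 beside -0.089 for all genes. The chemokine genes Cxcl2 (3.19 and 1.08 TPM) and Ccl4 (10.8 and 6.52 TPM) had the smallest p, with adjusted p of 0.653 and 0.874 by limma. Some of the 20 are also in the list of other immediate early genes, so the lists are not independent. Of 9 tested genes regulated by KLF2 or KLF6 the median was -0.078 as deposited and 0.033 with size factors. It was -0.13 to -0.15 without Sham replicate 2, Sham replicate 3, HI replicate 1 or HI replicate 3. At an unadjusted p under 0.05, 3 of the 9 were lower, where 2.95% of all tested genes were. Among them were the cell cycle inhibitor Cdkn1a (11.8 and 7.96 TPM) and the integrin gene Itgb7 (46.3 and 32.2 TPM).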

How the data were processed

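TPM values in 6 libraries (3 Sham, 3 HI) were deposited by the authors, per the file headers, with the authors' adjusted p-value and log2 fold change in the same table; its log2 sign was read as Sham over HI from the TPM values (Spearman -0.965 over 13787 genes) and is turned here. The submitters' processing notes name mm10; no aligner, counter or test is named in the sources used here. The 13787 genes that reached 1 TPM in 3 or more libraries were fitted on log2(TPM + 1) with limma-trend (limma 3.58.1, R 4.3.3, robust empirical Bayes, 4 residual degrees of freedom), with no covariate and Benjamini-Hochberg adjustment over all genes at 0.05. On this scale fold changes of low genes are understated. The planned test assumed this unit. TPM times GENCODE M21 exon-union length gave whole reads within 0.001 for 59.5% of genes, 16442215 to 21348199 reads per library in those genes; for Klf6, Ier5, Nr4a1, Zfp36l1 and Zfp36 the nearest length giving whole reads was used, for Zfp36 up to a common factor. The fit was also run on simulated reads that lacked the GC trends of these libraries. That run does not vouch for the fit on these data, and its outcome is not given here. Genes named are the 10 members, the 2 genes of each list with the smallest p, the 6 most alike in pattern, and Mpo, Elane, Cd34 and Kit. Of the marker lists, this holds for the erythroid, the B and T cell, and the macrophage and mature monocyte lists. The mature neutrophil, megakaryocyte, and endothelial and stromal lists are given by their sums only. Progenitor markers are given by Mpo, Elane, Cd34 and Kit only. Cd3e, Nr4a2, Egr2 and Nr4a3 fall outside this rule and were chosen after their values were seen. Members and lists were chosen with earlier results of these data known. The alternatives tried are in the closing section.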

Additional observations from a re-analysis of the deposited data

How the results depend on the processing

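Under 18 alternatives 0 members passed an adjusted p of 0.05, and the 8 tested genes kept negative log2 fold changes except Klf2 (0.027) and Zfp36l2 (0.033) under the GC and length correction, with or without the replicate block; Egr1 and Klf2 were not tested where a mean of at least 5 TPM was required. The number lower at an unadjusted p under 0.05, 3 with all libraries, ran from 1 to 5 with a library left out: 1 without Sham replicate 1, HI replicate 2 or HI replicate 3, and 5 without HI replicate 1, where 15.3% of all genes were. The number with HI wholly below Sham, 1 as deposited, was 5 with size factors, 3 with the GC and length correction (background 7.35%) and from 1 to 7 with a library left out; 7 without HI replicate 1 stood beside 35.3% of all genes, 4 without Sham replicate 3 beside 10.7% and 2 without HI replicate 3 beside 8.32%. The median of the set ran from -0.44 to -0.17. For the other immediate early genes the median was -0.052 with size factors and -0.0094 with the GC and length correction, with or without the replicate block. For the other Kruppel-like factors it was -0.10 with size factors, -0.11 with quantile normalization or a pseudocount of 5, -0.0061 with the GC and length correction, with or without the replicate block, and -0.24 to -0.094 with a library left out. For KLF2 and KLF6 targets it was 0.033 with size factors, -0.011 with voom on recovered reads and -0.15 to -0.075 with a library left out. The median over all genes moved too. It was 0.017 with size factors, 0.0026 with the GC and length correction and -0.011 with quantile normalization. With a pseudocount of 5 it was -0.064, with voom -0.030, and with a library left out -0.15 to -0.031. The Klf2 share differed by 1.04 percentage points, and by -0.912 to 3.15 with a library left out. The cause of these shifts was not tested. The labels do not say whether libraries with the same replicate number belong together. Deviations of same-numbered libraries correlated at 0.389, 0.182 and 0.0757. Sham replicates 1 and 3 correlated best with the HI library of the same number, and Sham replicate 2 with HI replicate 3. So few libraries cannot decide whether the numbers pair the samples. The replicate block gave 4 members at an unadjusted p under 0.05 (1516 of all genes were lower). It put 69 genes past the adjusted threshold, 0 of them members, with an adjusted p of 0.0548 by limma for Egr1. GC, protein-coding and voom alternatives were added after seeing the data. Nr4a1 and Zfp36l1 rest on at most 51 reads per library, which limits what can be seen of them.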
